A study of Mus musculus with 6 samples.

Results

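The matrix metalloproteinases (Mmp), the ADAMTS proteases (Adamts), the ADAMTS-like proteins (Adamtsl) and the tissue inhibitors of metalloproteinases (Timp) were followed in bulk RNA-Seq of NIH3T3 cells. A gene was a member if it was protein-coding and its symbol was 1 of these 4 prefixes followed by a number, with or without the letter a or b. By this rule 50 of the 55401 genes counted were members, of which 22 were Mmp, 19 Adamts, 5 Adamtsl and 4 Timp genes. Mmp1a fits the name but is annotated as a polymorphic pseudogene, was left out and had 0 counts in every library.

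NIH3T3 is an immortalized fibroblast line from mouse embryos. The EV group (2 libraries) carried an empty vector and received DMSO, and the TC group (1 library) expressed the TAZ-CAMTA1 fusion protein and received DMSO. The TC + ATA group (3 libraries) expressed the same fusion and received aurintricarboxylic acid (ATA) at 10 μM for 48 h, an agent the study tested for its ability to separate TAZ from TEAD. The EV and TC + ATA libraries are numbered replicates, and the labels do not say whether these are separate cultures, so p-values measure the spread between these samples, which may be technical.

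The total was 74413193 and 70428345 counts in EV, 71677675 in TC and 58471484, 72252063 and 69969024 in TC + ATA. Levels are given in CPM, counts scaled to the library size after TMM normalization, and levels of different genes are compared per kb of annotated exon. All libraries entered 1 fit with edgeR's quasi-likelihood test, and a gene was called at an adjusted p of at most 0.05 over the 18539 genes tested. TC has a single library, so the fit assumes that it varies like the other groups, which differ in spread. A fit without an EV replicate leaves 1 library in EV too, so TC + ATA alone then gives the spread. Over all genes, the chi-square per degree of freedom between 2 libraries was 61.3 for the EV pair, 5.86 to 6.61 among the TC + ATA libraries and 22.8 to 24.7 between TC and TC + ATA, so the EV libraries stood further apart than TC did from TC + ATA. In bulk RNA, fewer cells of a type and less RNA per cell cannot be told apart. Wwtr1, the mouse gene of TAZ, had 110 and 104 CPM in EV, 139 CPM in TC and 131, 129 and 131 CPM in TC + ATA, so it was higher in each library labelled as expressing the fusion. Camta1, the gene of the other fusion partner, had 18.9 and 15.4 CPM in EV, 19.2 CPM in TC and 18.4, 18.8 and 18.7 CPM in TC + ATA, and was not called in TC versus EV (adjusted p = 0.411 from edgeR).

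MMPs are zinc-dependent endopeptidases that cleave collagens, gelatin and many other proteins outside the cell, and most are made as inactive proenzymes. ADAMTS proteases are secreted enzymes with thrombospondin repeats, some of which cut proteoglycans such as versican and aggrecan while others remove the amino-terminal propeptide of fibrillar procollagens. ADAMTS-like proteins share the thrombospondin repeats but lack the protease domain, and TIMPs bind and block MMPs and some ADAMTS and ADAM enzymes.

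The fibroblast label was compared with marker genes. The 9 fibroblast markers were all tested and summed to 16850 and 14710 CPM in EV, 18590 CPM in TC and 19390, 19150 and 18210 CPM in TC + ATA, led by Col1a2 at a mean of 6449 CPM. Within this list Thy1 and Pdgfra fell in TC versus EV, with log2 fold changes of −1.47 and −1.20 (adjusted p = 1.03e-05 and 1.31e-05 from edgeR), and 3 of the 9 markers were called lower and 2 higher (33.3% and 22.2%, against 13.2% and 14.8% of all genes). In TC + ATA versus EV 2 were called lower and 5 higher (22.2% and 55.6%, against 18.6% and 18%). In TC + ATA versus TC edgeR called 0 of the 9, DESeq2 called Fn1 and Pdgfrb higher, and Fn1, Pdgfrb and Thy1 were higher at an unadjusted p under 0.05, with log2 fold changes of 0.55, 0.50 and 0.24. The 6 leukocyte markers summed to 9.40 and 9.39 CPM in EV, 11.9 CPM in TC and 13.4, 17.6 and 17.5 CPM in TC + ATA. Within this list Ptprc was far lower in TC + ATA replicate 1 than in the other TC + ATA libraries, with 3.17 and 2.87 CPM in EV, 2.23 CPM in TC and 0.282, 5.33 and 4.21 CPM in TC + ATA. The most abundant gene of this list, Lyz2, went from 0.495 and 0.249 CPM in EV to 5.66 CPM in TC and 8.94, 9.59 and 8.40 CPM in TC + ATA, and was the only 1 of the 4 tested that was called in TC versus EV, where the median log2 fold change of the 4 was −0.33. Csf1r went the other way, from 3.17 and 2.77 CPM in EV to 1.41 CPM in TC and 1.72, 0.846 and 1.15 CPM in TC + ATA, and was called lower in TC + ATA versus EV (adjusted p = 0.00709 from edgeR). The 5 endothelial markers summed to at most 3.85 CPM in any library (2.49 and 1.69 in EV, 3.85 in TC, 3.77, 3.51 and 3.06 in TC + ATA), with Pecam1 the most abundant at a mean of 0.936 CPM. Of these 5, Cdh5 was called higher in TC versus EV (0.655 and 0.315 CPM in EV, 1.43 in TC, adjusted p = 0.0385 from edgeR) and Kdr in TC + ATA versus EV (adjusted p = 0.0349 from edgeR). Cdh5 had 0.581, 0.804 and 0.618 CPM in TC + ATA. In TC + ATA versus TC it was not called (log2 fold change −1.09, unadjusted p = 0.0348, adjusted p = 0.468 from edgeR). Fn1, Pdgfrb, Ptprc, Csf1r, Cdh5 and Kdr lie outside the rule for named genes and were picked with their values in view. The 5 epithelial markers summed to 2.10 and 1.30 CPM in EV, 3.80 CPM in TC and 2.60, 2.75 and 3.93 CPM in TC + ATA, almost all of it from Krt14, which was called higher in TC than in EV (log2 fold change 1.09, adjusted p = 0.0486 from edgeR). Every marker had a count in at least 1 library. Whether the movement of these markers has a part in the results on the members was not tested.

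Of the 50 members, 22 averaged at least 1 CPM across all 6 libraries, 9 more were tested below that level, and 19 did not pass the filter on low counts. None of these 19 had more than 7 counts in a library, and Adamts18, Mmp1b, Mmp7, Mmp8, Mmp12, Mmp20 and Mmp27 had 0 counts in all 6. A total of 0 in a library allows up to 3 counts, which is between 0.0393 and 0.0528 CPM here and covers counting error only.

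The inhibitors and a few proteases made up most of the message. Per kb of exon, the level in EV was 213 CPM per kb for Timp2, 122 for Mmp2, 107 for Timp1, 49.1 for Adamts1 and 34.4 for Mmp14. In TC the order was Timp2 (225 CPM per kb), Timp1 (109), Mmp2 (98.4), Mmp14 (45.0) and Mmp11 (31.2), and in TC + ATA the same 5 genes stood at 266, 109, 103, 60.1 and 28.2 CPM per kb. In EV the libraries had 131 and 112 CPM per kb of Mmp2 and 121 and 93.0 of Timp1, so Mmp2 was above Timp1 in each, while the ranges of the 2 genes overlap. Adamts1 went from rank 4 in EV to rank 7 in TC and rank 6 in TC + ATA.

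Summed per kb, the Adamts genes came to 101 and 112 CPM per kb in EV, 55.9 in TC and 60.2, 60.2 and 60.2 in TC + ATA, so all TC-expressing libraries lay below both EV libraries. Adamts1 alone held 47.8% and 44.3% of that sum in EV and 24.2% in TC. The Timp sum was 361 and 307 CPM per kb in EV, 342 in TC and 385, 393 and 381 in TC + ATA, and the TC value lay between the EV values. The Mmp sum was 183 and 165 CPM per kb in EV, 177 in TC and 199, 195 and 192 in TC + ATA. These sums describe the RNA and were not tested.

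**Figure D1:**
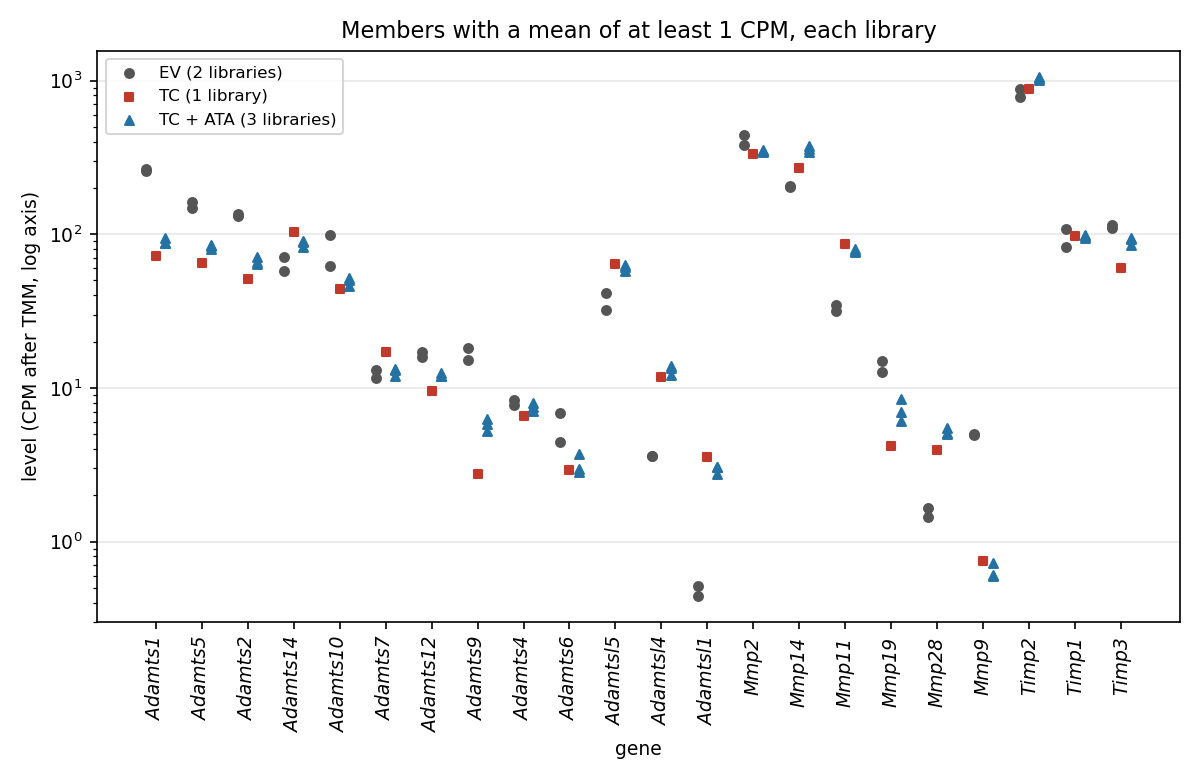
The level of each member averaging at least 1 CPM (CPM after TMM, log axis) in each library, with circles for EV, a square for TC and triangles for TC + ATA. Adamts1, Adamts2, Adamts5 and Adamts9 sit lower in every TC-expressing library than in EV, and Adamtsl1, Adamtsl4, Mmp11 and Mmp28 sit higher.

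TC versus EV asks which members differ when the fusion is expressed. Several secreted ADAMTS proteases were lower in TC, with Adamts9 6.04-fold and Adamts1 3.64-fold lower, as were Mmp9 (6.64-fold), Mmp19 and the inhibitor Timp3. Going the other way, the ADAMTS-like genes Adamtsl1 (7.41-fold) and Adamtsl4 (3.25-fold), Mmp11 and Mmp28 were higher. Timp1 and Timp2, the most abundant inhibitors, were not called. In all, 9 of the 31 members tested were called higher (29%, against 14.8% of all genes tested) and 11 were called lower (35.5%, against 13.2%). Among genes with a mean of at least 1 CPM the counts were 8 and 10 of 22 members, where 19.3% of genes were called higher and 18.3% lower. The members' shares lay above the background in both directions, the difference was not tested, and the genes that passed the filter are those with enough counts in at least 1 library. The median log2 fold change was −0.10 over the members tested and −0.03 over all genes tested. The median over members was −0.02 without EV replicate 1 and −0.31 without EV replicate 2. With the limit of the study on the fold, a log2 fold change of at least 2 in size, 2 of 31 members were called higher (6.45%, against 2.36% of all genes) and 3 lower (9.68%, against 1.27%). The 2 were Adamtsl1 and Mmp24, of which DESeq2 left only Adamtsl1. Mmp24, and Mmp16 among the 3, had means below 1 CPM. The study applied its limit to DESeq2 results, so these edgeR shares are not its own.

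Among the proteoglycan-cleaving ADAMTS genes, Adamts1 (chr16:85793827-85803113, reverse strand) is a secreted protease that cuts versican and aggrecan. Its level was 257 and 264 CPM in EV, 71.6 CPM in TC and 87.5, 94.3 and 88.2 CPM in TC + ATA. The EV libraries agreed closely and lay far above all 4 others. The TC versus EV log2 fold change was −1.86 (SE 0.09, adjusted p = 1.68e-06 from edgeR). Adamts5, a main aggrecan-degrading enzyme of cartilage, lies beside Adamts1 on the same strand (chr16:85856173-85901828). It had 147 and 162 CPM in EV, 65.4 CPM in TC and 80.4, 84.7 and 83.3 CPM in TC + ATA, and again the TC-expressing libraries did not reach the EV level. It fell by 1.24 on the log2 scale in TC versus EV (SE 0.09, adjusted p = 1.80e-05 from edgeR).

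Adamts9 (chr6:92772699-92943492, reverse strand), another versican-cutting enzyme, had 15.1 and 18.2 CPM in EV, 2.75 CPM in TC and 6.32, 5.85 and 5.22 CPM in TC + ATA. The 3 groups did not overlap. Between TC and EV the log2 fold change was −2.59 (SE 0.19, adjusted p = 1.70e-05 from edgeR). Over 1805 of its 15048 exonic bases Adamts9 overlaps genes on the opposite strand, and the sources used here do not say whether counting used the strand. Among these, A730049H05Rik had 0.655 and 0.485 CPM in EV, 7.46 CPM in TC and 5.60, 7.12 and 7.12 CPM in TC + ATA, the opposite direction to Adamts9. The remaining gene of this kind that was tested, Adamts4, had 8.38 and 7.76 CPM in EV, 6.56 CPM in TC and 7.50, 7.97 and 7.12 CPM in TC + ATA, and was not called (log2 fold change −0.30, adjusted p = 0.164 from edgeR). Adamts4 lies outside the rule for named genes and was chosen after its values were seen. Adamts8, Adamts15 and Adamts20, grouped with the same enzymes, did not pass the filter.

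The procollagen N-proteinases moved in opposite directions. Adamts2 (chr11:50602084-50807573), which removes the amino-terminal propeptide of fibrillar procollagens, had 131 and 135 CPM in EV, 51.0 CPM in TC and 66.3, 71.1 and 63.9 CPM in TC + ATA. In TC versus EV this gave a log2 fold change of −1.38 (SE 0.09, adjusted p = 1.05e-05 from edgeR). Adamts14 (chr10:61197112-61273438), a close relative with the same kind of activity, had 57.9 and 71.2 CPM in EV, 104 CPM in TC and 90.4, 82.6 and 89.2 CPM in TC + ATA. All 4 TC-expressing libraries were above both EV libraries, and the log2 fold change was 0.69 (SE 0.12, adjusted p = 0.00257 from edgeR). Per kb, Adamts2 went from 14.3 CPM in EV to 5.47 in TC, while Adamts14 went from 12.4 to 19.98. The third gene of this kind, Adamts3, was near 0 and was not tested.

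Of the other ADAMTS genes, Adamts10 and Adamts12 fell. Adamts10, whose mutation causes a connective tissue disorder, had 62.1 and 99.1 CPM in EV, 43.8 CPM in TC and 50.6, 46.1 and 52.0 CPM in TC + ATA. The EV libraries stood far apart, at 80.6 ± 26.2 CPM (SD, n = 2), and the TC versus EV log2 fold change was −0.88 (SE 0.23, adjusted p = 0.0188 from edgeR), or −0.50 without EV replicate 2 and −1.19 without EV replicate 1. Adamts12 had 15.9 and 17.1 CPM in EV, 9.57 CPM in TC and 12.5, 12.03 and 11.9 CPM in TC + ATA, with a log2 fold change of −0.79 (SE 0.12, adjusted p = 0.00107 from edgeR).

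The calls of Adamts6 and Adamts7 were lost in several alternatives. For single genes, calls said to be lost, counts of alternatives and ranges of adjusted p leave out here the fit with a replicate block. No label says that the replicate numbers pair the samples, and the calls lost with the block are given at the end. Adamts6 had 4.43 and 6.83 CPM in EV, 2.92 CPM in TC and 2.82, 2.96 and 3.70 CPM in TC + ATA. The difference of −0.94 on the log2 scale (adjusted p = 0.0403 from edgeR) was −0.60 without EV replicate 2, and the call was also lost without any 1 of the TC + ATA replicates and with the filter of 1 CPM, which left it in 7 of 12 alternatives (adjusted p between 0.00153 and 0.0828 over the alternatives). Adamts7, an enzyme known from vascular smooth muscle, had 11.6 and 13.1 CPM in EV, 17.1 CPM in TC and 13.1, 11.9 and 13.2 CPM in TC + ATA. Only the TC library stood apart. The log2 fold change was 0.46 (adjusted p = 0.0219 from edgeR), a call lost without TC + ATA replicate 3, without all of TC + ATA and with scaling by library totals (adjusted p between 0.00297 and 0.114 over the alternatives). Adamts7 shares 122 of its 6282 exonic bases with Tbc1d2b on the opposite strand, which was more abundant and was called higher in TC versus EV, at 55.9 and 53.4 CPM in EV, 90.2 CPM in TC and 99.8, 97.8 and 94.1 CPM in TC + ATA.

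All 3 ADAMTS-like genes averaging at least 1 CPM were higher in TC. Adamtsl1 (chr4:85514172-86428385) had 0.441 and 0.511 CPM in EV, 3.54 CPM in TC and 2.75, 3.06 and 3.05 CPM in TC + ATA. Against EV, the TC library had a log2 fold change of 2.89 (SE 0.25, adjusted p = 3.79e-05 from edgeR). Adamtsl4 (chr3:95676201-95687917), which binds fibrillin microfibrils, had 3.61 and 3.61 CPM in EV, 11.7 CPM in TC and 13.9, 13.4 and 12.04 CPM in TC + ATA. The TC-expressing libraries were all far above EV, and the log2 fold change was 1.70 (SE 0.13, adjusted p = 2.40e-05 from edgeR). Adamtsl5, the most abundant of them per kb, had 32.0 and 41.3 CPM in EV, 63.8 CPM in TC and 61.1, 57.4 and 62.6 CPM in TC + ATA. It rose with a log2 fold change of 0.80 (SE 0.13, adjusted p = 0.00206 from edgeR). Adamtsl3 was tested and not called, and Adamtsl2 was not tested.

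The gelatinases, which cut denatured collagen, were Mmp2 and Mmp9. Mmp2 (chr8:92827291-92853420) had 441 and 378 CPM in EV, 332 CPM in TC and 352, 346 and 343 CPM in TC + ATA. Every TC-expressing library was below both EV libraries, but the log2 fold change of −0.30 in TC versus EV was not called (SE 0.10, adjusted p = 0.0603 from edgeR). This value was −0.20 without EV replicate 1 and −0.41 without EV replicate 2. The adjusted p was at most 0.05 in 6 of 12 alternatives and ran from 1.01e-05 to 0.401. Mmp9 (chr2:164940780-164955850) was much scarcer, with 4.96 and 5.01 CPM in EV, 0.749 CPM in TC and 0.598, 0.719 and 0.604 CPM in TC + ATA. The groups with and without the fusion were far apart, and the log2 fold change was −2.73 (SE 0.28, adjusted p = 0.000121 from edgeR).

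Mmp14 (chr14:54431612-54445364), a membrane-type protease that activates proMMP2 together with TIMP2, had 206 and 204 CPM in EV, 268 CPM in TC and 373, 361 and 340 CPM in TC + ATA. The 3 groups did not overlap. The TC versus EV log2 fold change was 0.39 (SE 0.09, adjusted p = 0.00977 from edgeR), a call lost when TC + ATA was left out of the fit (adjusted p = 0.167, the highest of alternatives that started at 0.000171). The other membrane-type genes had means below 1 CPM over the 6 libraries. Mmp16 was called lower, with 85 and 83 counts in EV, 12 in TC and 2, 15 and 6 in TC + ATA (log2 fold change −2.67, adjusted p = 0.0316 from edgeR), a call lost without TC + ATA replicate 3 (adjusted p between 0.000771 and 0.0619 over the alternatives). Mmp24 was called higher, with 2 and 10 counts in EV, 35 in TC and 12, 13 and 8 in TC + ATA (adjusted p = 0.0487 from edgeR), and kept the call in 4 of the 11 alternatives in which it was tested, with adjusted p between 0.0115 and 0.108. Its log2 fold change was 2.64, or 1.92 without EV replicate 1 and 4.14 without EV replicate 2. Without EV replicate 1 and without any 1 of the TC + ATA replicates the Mmp24 call was lost. On the opposite strand BC029722 shares 637 of the 4683 exonic bases of Mmp24, and had between 16.7 and 23.4 CPM. Mmp15 and Mmp17 were tested and not called, and Mmp25 was not tested. Mmp16 and Mmp24 fall outside the rule for named genes and were chosen after their values were seen.

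Mmp11 (chr10:75923222-75936496), stromelysin-3, is known as a stromal MMP in tumours. It had 31.8 and 34.6 CPM in EV, 86.6 CPM in TC and 77.8, 76.4 and 80.6 CPM in TC + ATA. No TC-expressing library came near the EV values, and the TC versus EV log2 fold change was 1.38 (SE 0.08, adjusted p = 5.34e-06 from edgeR). Mmp28 (chr11:83440768-83463071), epilysin, had 1.66 and 1.44 CPM in EV, 3.93 CPM in TC and 5.07, 5.52 and 5.03 CPM in TC + ATA. This was a log2 fold change of 1.34 (SE 0.19, adjusted p = 0.000869 from edgeR). Mmp28 shares 466 of its 3874 exonic bases with a gene on the opposite strand, 1700020L24Rik, which had 0.321 and 0.157 CPM in EV, 0.648 CPM in TC and 1.02, 1.04 and 1.28 CPM in TC + ATA.

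Mmp19 (chr10:128790910-128800824) had 14.9 and 12.7 CPM in EV, 4.19 CPM in TC and 8.41, 6.997 and 6.13 CPM in TC + ATA. The TC library was the lowest and the EV libraries the highest. Between TC and EV the log2 fold change was −1.72 (SE 0.21, adjusted p = 0.000354 from edgeR). Over 1001 of 3533 exonic bases Mmp19 overlaps genes on the opposite strand, of which Tmem198b is the only gene with more than a few counts, with 12.3 and 14.9 CPM in EV, 10.7 CPM in TC and 11.97, 11.6 and 12.2 CPM in TC + ATA. Reads of these genes cannot be told apart in the overlap if the strand was not used.

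Of the inhibitors, Timp3 (chr10:86300372-86349506) was the only one called in TC versus EV. TIMP3 binds to the extracellular matrix and blocks MMPs, several ADAMs and aggrecan-cutting ADAMTS enzymes. It had 115 and 110 CPM in EV, 60.3 CPM in TC and 94.9, 93.8 and 85.4 CPM in TC + ATA. The 3 groups did not overlap, and the TC versus EV log2 fold change was −0.90 (SE 0.09, adjusted p = 0.000131 from edgeR). Syn3, which shares 1733 of the 8144 exonic bases of Timp3 on the opposite strand, had at most 0.455 CPM in any library.

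Timp2 (chr11:118301069-118355740) had 878 and 779 CPM in EV, 877 CPM in TC and 1043, 1059 and 1007 CPM in TC + ATA. The TC library lay within the EV range, and the log2 fold change of 0.08 was not called (SE 0.10, adjusted p = 0.609 from edgeR) and turned to −0.02 with scaling by library totals. Timp1 (chrX:20870166-20874735) had 107 and 82.6 CPM in EV, 96.9 CPM in TC and 93.8, 96.8 and 99.3 CPM in TC + ATA. All other libraries lay between the EV libraries, and the log2 fold change of 0.03 (SE 0.14, adjusted p = 0.909 from edgeR) was −0.07 with scaling by library totals. Without EV replicate 1 both genes were called higher, with log2 fold changes of 0.16 for Timp2 and 0.22 for Timp1. EV and TC are then 1 library each and TC + ATA alone gives the spread, so nothing is read from these calls. Without EV replicate 2 the log2 fold changes were −0.003 for Timp2 and −0.15 for Timp1. Timp4 was scarce, with 0.615 and 0.275 CPM in EV, 0.274 CPM in TC and 0.792, 1.00 and 0.647 CPM in TC + ATA, and was not called in any of the 3 comparisons with all libraries in the fit. Without EV replicate 1 it was called higher in TC + ATA versus EV (log2 fold change 1.54, against 0.87 with all libraries). EV is then 1 library and TC + ATA alone gives the spread, so nothing is read from that call. Timp4 shares 90 of its 5894 exonic bases with Syn2 on the opposite strand. Syn2 had 0.334 and 0.328 CPM in EV, 1.33 CPM in TC and 1.23, 1.78 and 2.43 CPM in TC + ATA. It was called higher in TC + ATA versus EV (log2 fold change 2.45, adjusted p = 0.000691 from edgeR).

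TC + ATA versus TC asks which members differ with ATA when the fusion is expressed. Adamts9 and Timp3 rose with ATA, by 2.10-fold and 1.52-fold, and edgeR called no other member. These were 2 of 31 members tested called higher (6.45%, against 0.426% of all genes) and 0 called lower (0.156% of all genes). Among genes with a mean of at least 1 CPM, 2 of 22 members were called higher and 0 lower, with 0.621% and 0.205% of genes called. At an unadjusted p under 0.05 edgeR gave 10 members higher and 1 lower (5.65% and 3.95% of all genes), and DESeq2 at its adjusted p called 6 higher and 0 lower (1.64% and 0.585% of the genes it gave an adjusted p). The median log2 fold change was 0.18 over the members tested and 0.00 over all genes tested. This comparison and TC versus EV share the TC library in opposite roles, so a value of that library that was low by error would lower 1 of them and raise the other.

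Adamts9 had 2.75 CPM in the TC library and 5.80 ± 0.55 CPM (SD, n = 3) with ATA, and the log2 fold change was 1.07 (SE 0.18, adjusted p = 0.0426 from edgeR). For Timp3 the values were 60.3 CPM without ATA and 91.3 ± 5.21 CPM (SD, n = 3) with ATA, and the log2 fold change was 0.60 (SE 0.09, adjusted p = 0.0251 from edgeR). Each TC + ATA library was above the TC library for both genes. Without any 1 of the TC + ATA replicates both calls were lost, although the log2 fold change stayed between 1.01 and 1.15 for Adamts9 and between 0.57 and 0.65 for Timp3. The Adamts9 call was also lost with scaling by library totals (adjusted p = 0.0725) and with the filter of 1 CPM (adjusted p = 0.0504), so Adamts9 was called in 7 and Timp3 in 9 of 12 alternatives. These counts include the fits without EV and without either EV replicate. There TC + ATA alone gives the spread, so those fits add no support to the 2 calls. Over the alternatives the adjusted p ran from 0.000121 to 0.172 for Adamts9 and from 5.11e-06 to 0.172 for Timp3.

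Some members not called in the main edgeR fit were called in alternatives. DESeq2 called Adamts1, Adamts2, Mmp14 and Mmp19 of these higher (adjusted p = 0.0428, 0.0151, 0.00125 and 0.0249 from DESeq2). With no filter on low counts edgeR called Adamts2, Mmp14 and Mmp19. For Mmp14 the log2 fold change with ATA was 0.42 (SE 0.09, adjusted p = 0.0885 from edgeR). Adamts2 had 0.39 (SE 0.09, adjusted p = 0.109 from edgeR), Adamts1 0.33 (adjusted p = 0.159) and Adamts5 0.34 (adjusted p = 0.165). The value of Mmp19 was 0.77 (SE 0.20, adjusted p = 0.178 from edgeR). When EV was left out of the fit, edgeR called 8 members higher (the 2 above and Adamts1, Adamts2, Adamts5, Mmp14, Mmp19 and Timp2) and 2 lower, Adamts7 and Adamts14. The calls over all genes rose as well in that fit, from 79 to 795 higher (4.42% of genes) and from 29 to 633 lower (3.52%). TC + ATA alone gives the spread in the fit without EV, so nothing is read from its calls. The log2 fold changes of these genes were close to those of the fit with all libraries, at 0.43 for Mmp14 and −0.41 for Adamts7.

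Of the 9 members called higher in TC versus EV, edgeR called 0 in TC + ATA versus TC and DESeq2 called 1, Mmp14. Mmp14 (higher) and Adamts7 (lower) had an unadjusted p under 0.05. Over all genes, edgeR called 0.426% higher and 0.156% lower with ATA, and DESeq2 1.64% and 0.585%, so 0 of 9 is near these shares. Of the 11 members called lower in TC versus EV, edgeR called Adamts9 and Timp3 higher with ATA, and DESeq2 also Adamts1, Adamts2 and Mmp19. Differences between these genes were not tested. Adamts7 went from 17.1 to 12.7 CPM, near its EV level (log2 fold change −0.42, adjusted p = 0.223), and Adamts14 had −0.25 (adjusted p = 0.540). Both were called lower in 3 of 12 alternatives, which are the fits without EV or without either EV replicate. In these TC + ATA alone gives the spread, so nothing is read from the calls. For the scarce Mmp24 the log2 fold change with ATA was −1.57 (adjusted p = 0.566), while Mmp14, given above, and Mmp28, at 0.40 (adjusted p = 0.532), lay above TC. With ATA the log2 fold change was −0.15 for Mmp11, −0.08 for Adamtsl5, 0.16 for Adamtsl4 and −0.26 for Adamtsl1, and none of the 4 was called (adjusted p between 0.623 and 0.898 from edgeR). Mmp9, low in TC, had a log2 fold change of −0.22 (SE 0.27, adjusted p = 0.851 from edgeR). Mmp2 had 0.06 (SE 0.10, adjusted p = 0.891 from edgeR). A p above the limit does not show that these levels were equal.

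TC + ATA versus EV sets the treated fusion cells against cells without the fusion. The largest decreases among members with a mean of at least 1 CPM were Mmp9 (7.75-fold lower), Adamts1 (2.89-fold) and Adamts9 (2.87-fold), and the largest increases were Adamtsl1 (6.18-fold higher), Adamtsl4 (3.63-fold) and Mmp28 (3.36-fold). Of 31 members tested, 9 were called higher (29%, against 18% of all genes) and 12 lower (38.7%, against 18.6%). At a mean of 1 CPM or more, 8 and 11 of 22 members were called, where 22.7% of genes were higher and 25.2% lower. The median log2 fold change was −0.03 over members tested and −0.01 over all genes tested. Its sign over members turned without EV replicate 1, where it was 0.14, and it was −0.15 without EV replicate 2. This comparison shares the EV libraries with TC versus EV and the TC + ATA libraries with TC + ATA versus TC.

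For the ADAMTS proteases the log2 fold changes were −1.53 for Adamts1 (SE 0.06, adjusted p = 2.83e-07 from edgeR), −1.52 for Adamts9 (SE 0.12, adjusted p = 1.68e-05 from edgeR), −0.99 for Adamts2 and −0.90 for Adamts5. Adamts6, Adamts10 and Adamts12 were also called lower, at −0.83, −0.70 and −0.44, and the call of Adamts6 was lost without EV replicate 2 (−0.47). Adamts10 was −0.32 without EV replicate 2 and −1.01 without EV replicate 1. Adamts14 was called higher at 0.44 (SE 0.09, adjusted p = 0.00533 from edgeR), or 0.28 without EV replicate 1. Adamts7, called in TC versus EV, had 0.04 here (adjusted p = 0.763 from edgeR), which turned to −0.05 with scaling by library totals.

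Mmp14 reached 358 ± 16.4 CPM (SD, n = 3) with ATA against 205 ± 1.495 CPM (SD, n = 2) in EV, and the log2 fold change was 0.80 (SE 0.07, adjusted p = 2.18e-05 from edgeR). Timp2 was called higher at 0.32 (SE 0.08, adjusted p = 0.0106 from edgeR), with 1036 ± 26.5 CPM (SD, n = 3) against 828 ± 70.0 CPM (SD, n = 2). The Timp2 call was lost without TC + ATA replicate 1 or 2 (adjusted p between 2.31e-06 and 0.0763 over the alternatives). Mmp2 was called lower at −0.24 (SE 0.08, adjusted p = 0.0372 from edgeR), and that call was lost without any 1 of the TC + ATA replicates (adjusted p between 7.00e-06 and 0.140 over the alternatives), while without EV replicate 1 the log2 fold change was −0.14. Timp1 was not called (0.02, adjusted p = 0.880 from edgeR). It was called higher without EV replicate 1 (0.21) and lower without EV replicate 2 (−0.14). Each of these fits has 1 EV library and takes the spread from TC + ATA alone. The EV libraries lay apart for Timp1, at 107 and 82.6 CPM, so nothing is read from these calls.

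Timp3 remained below EV at −0.30 (SE 0.07, adjusted p = 0.00694 from edgeR). For Mmp9, Mmp11, Mmp19 and Mmp28 the log2 fold changes were −2.95, 1.24, −0.95 and 1.75, each called. The ADAMTS-like genes Adamtsl1, Adamtsl4 and Adamtsl5 were called higher at 2.63, 1.86 and 0.72. Mmp16, which had at most 15 counts in a TC + ATA library, was called lower at −3.26 (adjusted p = 0.00144 from edgeR), or −4.11 without TC + ATA replicate 2 and −2.88 without TC + ATA replicate 1.

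**Figure D2:**
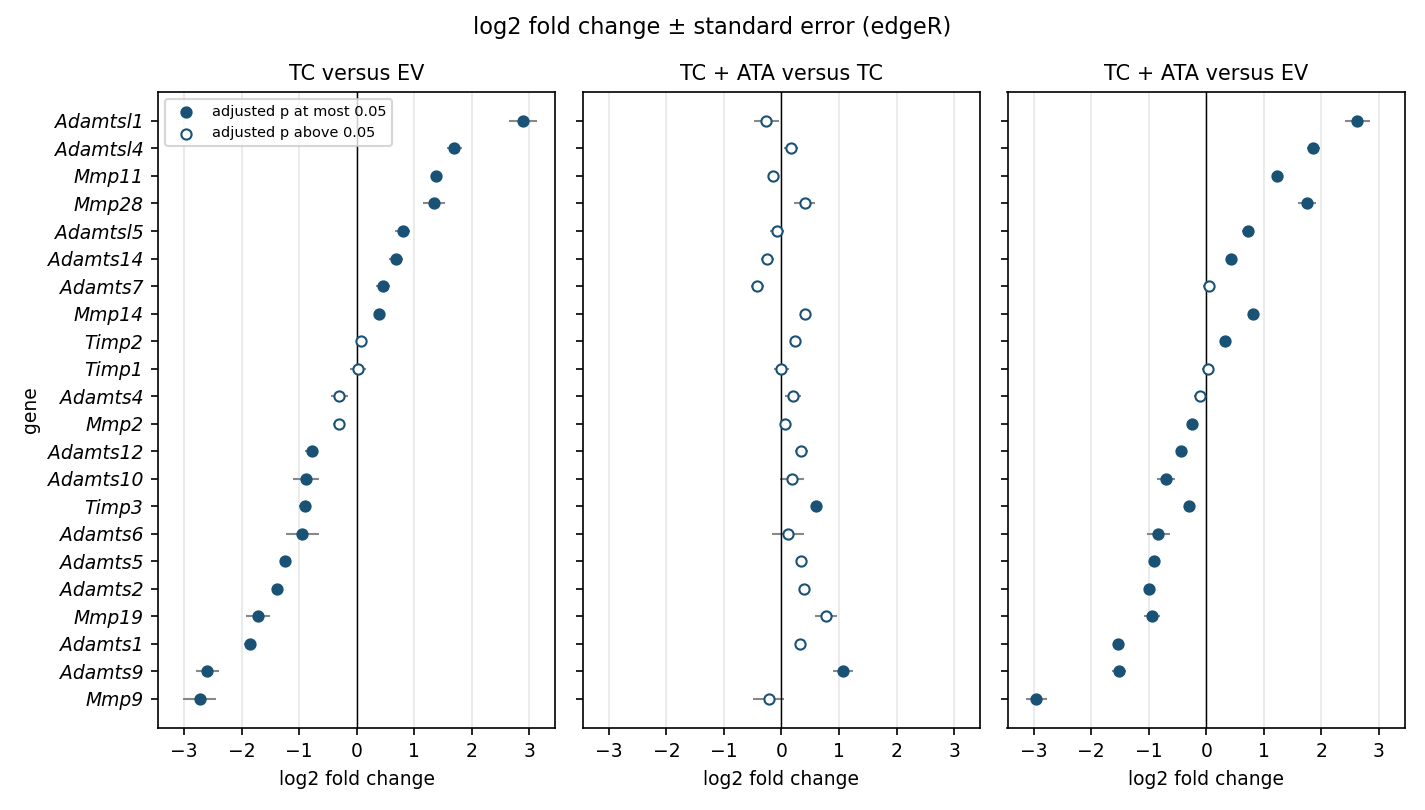
The log2 fold change of each member with a mean of at least 1 CPM (points) with its standard error (bars) from edgeR in the 3 comparisons, with filled points for an adjusted p of at most 0.05. Adamts9 and Timp3 are the only filled points in TC + ATA versus TC, at 1.07 and 0.60.

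A cluster of Mmp genes on chromosome 9 was nearly silent. From 7272514 to 7699585 on GRCm38, a span of 427 kb, it holds 9 members, among them the collagenases Mmp13, Mmp8 and Mmp1b, the stromelysins Mmp3 and Mmp10, the matrilysin Mmp7 and the macrophage elastase Mmp12. The 9 genes together had 2 and 2 counts in EV, 8 in TC and 6, 22 and 6 in TC + ATA, and 6 of them had 0 counts in every library. Mmp3 had 0 and 0 counts in EV, 4 in TC and 4, 16 and 2 in TC + ATA. It is among the 9 members called higher in TC + ATA versus EV (adjusted p = 0.0449 from edgeR), but it passed the filter on low counts only through TC + ATA replicate 2, which held most of its counts, so the call rests on that library and nothing is read from it. The Mmp3 call was lost without either EV replicate, without TC + ATA replicate 1 and with scaling by library totals (adjusted p between 0.0274 and 0.0947 over 9 alternatives). It did not pass the filter, and so was not tested, without TC + ATA replicate 2, with only the groups compared in the fit and with the filter of 1 CPM. Mmp3 falls outside the rule for named genes and was chosen after its values were seen. Low counts were even more often than odd in every library, with 960 genes at a count of 1 and 1799 at a count of 2 in EV replicate 1. The sources used here do not say whether the reads of a pair were counted singly, in which case these few counts stand for fewer fragments and the floor is too low.

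**Figure D3:**
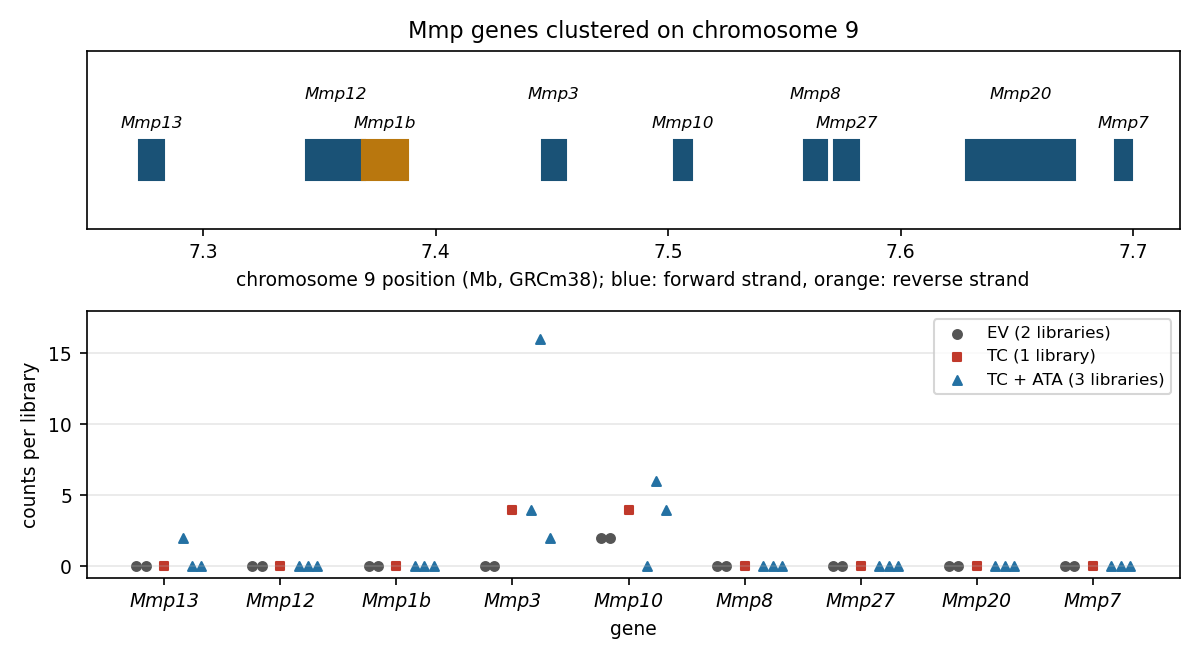
The 9 members on chromosome 9 between 7272514 and 7699585 (upper panel, position in Mb on GRCm38) and their counts in each library (lower panel). No gene exceeds 16 counts in a library, and the highest value is Mmp3 in TC + ATA replicate 2.

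The cluster shares a sequence feature that the rule did not use. The RefSeq promoter table (GRCm38.p6, 250 bases before to 50 after a start) held 35 of the 50 members. The letters TGANTCA, the AP-1 motif, which reads the same on both strands, are in 7.81% of all 32851 promoters of this length. Among the members 7 have it, Mmp1b, Mmp3, Mmp7, Mmp10, Mmp12, Mmp13 and Mmp20, and all 7 lie in the chromosome 9 cluster. No promoter of a member with a mean of at least 1 CPM held these letters, among those in the table. Adamts4, Adamts5, Adamts6, Adamts7, Adamts10, Adamtsl1, Mmp2, Mmp9 and Mmp19 reach that mean but have no promoter in the table. The stretches are shown, 5′ to 3′ on the strand of the gene, because 7 of the 9 nearly silent genes share this feature, and the capitals mark the match. All but Mmp1b are on the forward strand.
Mmp13, chr9:7272468-7272496, first capital 35 bases before the start: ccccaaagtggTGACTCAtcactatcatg
Mmp12, chr9:7347319-7347347, 44 bases before a start: gacatcaacagTGAGTCAgatagaggatt
Mmp1b, chr9:7388102-7388130, 93 bases before: gttacaaagccTGAGTCAtatagcctctg
Mmp3, chr9:7445765-7445793, 46 bases before: ggaagcaattaTGAGTCAgttttcgggtg
Mmp10, chr9:7502268-7502296, 63 bases before: tagcacccatgTGAGTCAtgcttagtgac
Mmp20, chr9:7628125-7628153, 95 bases before: catttgagacaTGAATCAtcacttacagg
Mmp7, chr9:7692016-7692044, 63 bases before a start: aagtgtgcaaaTGAGTCAcctatttccac
None of these stretches overlaps an annotated exon. A match of letters is a description and does not show binding.

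The letters GGAATG, the core of the TEAD motif, searched on both strands, are in 14.7% of all promoters and in those of 2 members, Timp1 and Adamts13. They are shown because TAZ acts through TEAD proteins, and the capitals mark the match, which in Adamts13 lies on the reverse strand. Both genes are on the forward strand.
Timp1, chrX:20869916-20869936, first capital 247 bases before the start: acaGGAATGcctttcttgtga
Adamts13, chr2:26973354-26973383, 50 bases before the start: tcaactgggaatCATTCCaggcaagaagct
With all libraries in the fit Timp1 was not called in any comparison (its calls without an EV replicate are given above), and Adamts13 was near 0 and not tested. Absence of the letters in the other promoters says only that they are not in this window.

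Genes that act with the members were taken from fixed lists. Of 18 genes for activation, inhibition and cell surface partners of the proteases, 14 were tested, 7 were called higher and 2 lower in TC versus EV (50% and 14.3%, against 14.8% and 13.2% of all genes; median log2 fold change 0.43, against −0.03 for all genes). Cd151, a tetraspanin, had 76.6 and 67.1 CPM in EV, 227.8 CPM in TC and 235, 229 and 222 CPM in TC + ATA (log2 fold change 1.66 in TC versus EV, adjusted p = 3.48e-06 from edgeR). Cd44, a hyaluronan receptor that can hold MMPs at the cell surface, rose by 1.17 on the log2 scale, Itgav by 1.08 and Cav1 by 1.03. With ATA (TC + ATA versus TC), 0 of the 14 were called by edgeR in either direction, 0 by DESeq2, and at an unadjusted p under 0.05 the counts were 0 higher and 1 lower. Against EV, 7 of them were called higher and 1 lower (50% and 7.14%, where 18% and 18.6% of all genes were called).

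Of 16 related ADAM and astacin proteases, 12 were tested, with 4 called higher and 3 lower in TC versus EV (33.3% and 25%, against 14.8% and 13.2% of all genes). Adam22, an ADAM protein without protease activity, went from 0.187 and 0.275 CPM in EV to 6.58 CPM in TC and 6.48, 4.67 and 6.05 CPM in TC + ATA. Adam33 and Adam9 were also higher in TC, with log2 fold changes of 2.06 and 1.15. Adam23 had 88.9 and 93.3 CPM in EV, 39.0 CPM in TC and 58.9, 61.0 and 55.3 CPM in TC + ATA. It fell by 1.22 on the log2 scale in TC versus EV and was the 1 gene of this list called in TC + ATA versus TC (8.33%, against 0.426% of all genes called higher), at 0.58 (SE 0.09, adjusted p = 0.0260 from edgeR). DESeq2 called 1 higher and 0 lower there, and an unadjusted p under 0.05 was reached by 3 higher and 1 lower. In TC + ATA against EV, 6 were called higher and 2 lower (50% and 16.7%, against 18% and 18.6%).

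Of 18 substrates and matrix partners, 17 were tested, with 3 called higher and 4 lower in TC versus EV (17.6% and 23.5%, against 14.8% and 13.2% of all genes), so the share called higher was near that of all genes. Vcan, the versican gene whose product Adamts1, Adamts5 and Adamts9 can cut, had 414 and 420 CPM in EV, 175 CPM in TC and 183, 176 and 168 CPM in TC + ATA. In TC versus EV this gave a log2 fold change of −1.25 (SE 0.09, adjusted p = 1.52e-05 from edgeR), and in TC + ATA versus TC it was 0.01 (adjusted p = 0.991 from edgeR). Pcolce, which enhances cleavage of the carboxy-terminal procollagen propeptide, rose by 1.16 on the log2 scale and the basement membrane gene Nid1 by 2.31, while Dcn fell by 2.07. Of the 17, 0 were called in TC + ATA versus TC by edgeR, 1 higher by DESeq2, and at an unadjusted p under 0.05 the counts were 1 higher and 0 lower. In TC + ATA versus EV, 5 were called higher and 4 lower (29.4% and 23.5%, against 18% and 18.6%). The 5 include Ncan, with 0 and 0 counts in EV, 8 in TC and 2, 20 and 4 in TC + ATA, which reached 10 counts only in TC + ATA replicate 2, so its call rests on that library and is named after its values were seen.

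Of 6 thrombospondin-repeat relatives outside the naming rule, 3 were tested, and Thsd7a was the 1 called in TC versus EV, lower there (33.3%, against 13.2% of all genes; log2 fold change −1.38, adjusted p = 0.000147 from edgeR). Of these, 0 were called in TC + ATA versus TC by edgeR or DESeq2, and 0 had an unadjusted p under 0.05. In TC + ATA versus EV, 1 was called higher and 1 lower (33.3% each, against 18% and 18.6% of all genes), shares that rest on 3 genes.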

How the data were processed

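Poly(A) RNA-Seq of 6 NIH3T3 libraries was analysed. The authors aligned paired-end reads to GRCm38.p6 (mm10) with HISAT2 2.2.1, counted reads per gene with featureCounts and deposited raw counts without normalization. The annotation release and use of strand are not given in the sources used here. Genes were tested with edgeR 4.0.16 in R 4.3.3 (TMM, filterByExpr, glmQLFit, glmQLFTest, Benjamini-Hochberg adjustment), with 3 residual degrees of freedom. Standard errors came from the F statistic. Exon lengths, gene types and overlaps came from GENCODE M21 and promoters from RefSeq. The edgeR step was run on simulated counts with known changes and the same spread in every group. That run does not cover the unequal spread of the groups here.

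Members and lists were chosen with earlier results of these data known. Named were members called in at least 1 comparison averaging at least 1 CPM, all Timp genes, Mmp2, Mmp9 and Mmp14, and list genes with a mean of at least 1 CPM called in TC + ATA versus TC, or in TC versus EV with a log2 fold change of at least 1 in size. Alternatives were DESeq2 1.42.0, a fit of only the groups compared, RLE, upper quartile or library totals, other filters, a replicate block, and the omission of each EV or TC + ATA replicate.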

Additional observations from a re-analysis of the deposited data

How the results depend on the processing

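Over 13 alternatives, a replicate block among them, 891 of 1000 log2 fold changes of the members named kept their direction and their side of the threshold, 47 lost and 42 gained a call, and 20 turned sign. In TC versus EV, 14 of 20 called members were called in every alternative (Adamts1, Adamts2, Adamts5, Adamts9, Adamts12, Adamts14, Adamtsl1, Adamtsl4, Adamtsl5, Mmp9, Mmp11, Mmp19, Mmp28 and Timp3), and in TC + ATA versus EV 16 of 21. With the block apart these were 15, adding Adamts10, and 17, adding Timp3. In TC + ATA versus TC, neither of the 2 was called in every alternative. The number of members called higher in TC + ATA versus TC was 2 with all libraries in 1 edgeR fit (79 over all genes). It was 6 with DESeq2 (236 over all genes), 8 with only the groups compared (795), 5 with no filter (242), 1 with library totals (72) and 1 with the filter of 1 CPM (81). It was 9 without EV replicate 2, 8 without EV replicate 1 and 0 without any 1 of the TC + ATA replicates, while the calls over all genes, 79, were 808, 707 and between 7 and 28. The number called lower there, 0, was 2 with only the groups compared and 0 without any 1 of the TC + ATA replicates. The calls lower over all genes, 29, were 633 and between 3 and 12 in these fits. Without EV replicate 1 or 2 the log2 fold change there was −0.42 or −0.41 for Adamts7 and −0.25 or −0.24 for Adamts14. These fits, and the fit of TC and TC + ATA only, take the spread from TC + ATA alone, so nothing is read from their calls. With the limit on the fold, the 2 members called higher in TC versus EV were 1 with DESeq2, upper quartile, library totals and the filter of 1 CPM, and between 1 and 2 with each replicate left out. Scaling by library totals moved the median of all genes by −0.11 in TC versus EV. Why values turned sign was not tested. Timp1 in TC + ATA versus EV was called lower without EV replicate 2 and higher without EV replicate 1. Timp1 was with library totals −0.0739 for TC versus EV, −0.0562 for TC + ATA versus EV, and with each replicate left out it ran from −0.152 to 0.217 and from −0.143 to 0.213. In TC + ATA versus TC, where it was −0.00324, it was 0.000575 with DESeq2, 0.0077 with only the groups compared, 0.000893 with RLE, 0.000318 with upper quartile, 0.0177 with library totals, 0.00846 with the filter of 1 CPM and between −0.0211 and 0.0187 with each replicate left out. Timp2 in TC versus EV was −0.0222 with library totals and between −0.00267 and 0.16 with each replicate left out. Adamts7 in TC + ATA versus EV was −0.0476 with library totals and between −0.0573 and 0.144 with each replicate left out. Adamts6 in TC + ATA versus TC was between −0.015 and 0.188 with each replicate left out. Deviations of same-numbered EV and TC + ATA libraries correlated at −0.03 and −0.09 across genes. With 2 EV libraries their deviations mirror each other, so this cannot settle whether the replicate numbers pair the samples. A block for the replicate number left 0 members called higher in TC + ATA versus TC and 1 in TC versus EV with the limit on the fold, and under it Adamts6 was −0.199 in TC + ATA versus TC, and Timp1 0.0644 in that comparison and −0.0477 in TC versus EV. With the block the calls of Adamts6, Adamts7, Adamts10, Mmp14, Mmp16 and Mmp24 in TC versus EV were lost. So were those of Mmp2, Mmp3, Timp2 and Timp3 in TC + ATA versus EV. Members below 1 CPM are limited by depth, and the single TC library limits both comparisons that hold it.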
